A study of Mus musculus with 19 samples.

Results

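Described here are 8 genes that mark macrophages or govern their growth in epididymal white adipose tissue (eWAT): Adgre1, Cd68, Csf1r, Csf1, Spi1, Lyz2, Mpeg1 and Ptprc. They were taken by their symbols from a table of 24237 genes, and all 8 were found. The tissue came from adult male wild-type C57Bl6/J mice fed 1 of 4 diets for 17 weeks. These were a low-fat diet with normal magnesium (NormMg-LFD, n = 4), a low-fat diet with low magnesium (LowMg-LFD, n = 5), a high-fat diet with normal magnesium (NormMg-HFD, n = 5) and a high-fat diet with low magnesium (LowMg-HFD, n = 5). Fat was supplied as palm oil and magnesium as magnesium oxide, each mouse gave 1 library, and the NormMg-LFD mice are numbered 2 to 5. The study asked how dietary Mg2+ acts on diet-induced obesity, and the comparisons below ask how these genes differed with fat at each Mg2+ level and with Mg2+ at each fat level.

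Macrophages in adipose tissue take up dying adipocytes and lipid, and they accumulate in the eWAT of obese mice, where many surround single adipocytes. Their survival and growth depend on the tyrosine kinase receptor CSF1R, which is switched on by either of its ligands, CSF1 or IL-34. The transcription factor PU.1, encoded by Spi1, drives the macrophage programme, in which Csf1r and many genes of the lysosome are targets. Ptprc encodes CD45, a phosphatase on the surface of all white blood cells, so it marks leukocytes rather than macrophages alone. Lyz2 is also expressed by neutrophils and monocytes, Spi1 by B cells and neutrophils, and Csf1 by fibroblasts, endothelium and adipocytes.

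The genes lie on 8 chromosomes (GRCm38, GENCODE vM21). Adgre1 (ENSMUSG00000004730.14) is at chr17:57358691-57483527 on the plus strand, and Ptprc (ENSMUSG00000026395.16) at chr1:138062861-138175708 on the minus strand. Cd68 (ENSMUSG00000018774.13) is at chr11:69664213-69666153 and Csf1 (ENSMUSG00000014599.10) at chr3:107741048-107760469, both on the minus strand. Spi1 (ENSMUSG00000002111.8) is at chr2:91082390-91115756, Mpeg1 (ENSMUSG00000046805.9) at chr19:12460779-12465283 and Csf1r (ENSMUSG00000024621.15) at chr18:61100598-61132149, all on the plus strand. Lyz2 (ENSMUSG00000069516.7) is at chr10:117277331-117282321 on the minus strand, and its paralog Lyz1 follows after 5475 bases at chr10:117287797-117292868. FPKM is summed over all exons of a gene, so that it covers coding and untranslated parts alike. The exons of 7 of the genes overlap those of no other gene. Of the 5774 exonic bases of Csf1r, 873 lie within exons of Hmgxb3, a gene on the other strand that was listed at 4.67 to 7.88 FPKM over the 19 mice, and how strand was treated in counting is not given in the sources used here.

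Between 12986441 and 13027028 reads were sequenced per mouse, and 86.12% to 90.41% of them mapped. Expression is given as FPKM, which scales reads for transcript length and for the size of the library. FPKM is relative to all reads of a library, so the value of a gene also depends on what else the tissue expressed. The table holds no read counts, so the counting error of a single value is unknown and precision is taken from the spread between mice. Transcripts of other organs stood out in 3 libraries. The summed FPKM of 14 exocrine pancreas genes was 1951.94 in NormMg-LFD replicate 3 and 12.5 to 52.6 in the other mice. That of 8 epididymis genes was 137.0 in LowMg-LFD replicate 4 and 30.3 in LowMg-HFD replicate 4, against 0.37 to 5.13 in the others. The counts of the 8 genes that passed are also given without these libraries, but the gene lists and correlations are not. The methods of the study state that a LowMg-HFD library with some pancreatic tissue was set aside, without saying which. All LowMg-HFD libraries, whose pancreas genes summed to 21.1 to 44.6 FPKM, were kept here, and leaving out the highest of them, replicate 2, was tried as an alternative. Of the 14 genes, 12 were under 1 FPKM in every LowMg-HFD mouse, and Cela1 was at 19.6 to 41.9. NormMg-HFD mice, at sums of 34.4 to 52.6, were no lower, so these sums do not show which library was set aside.

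In NormMg-LFD mice, Lyz2 was by far the most abundant of the 8 genes, at 370.2 ± 35.3 FPKM (SD, n = 4), followed by Csf1r at 47.8 ± 6.89, Cd68 at 30.7 ± 6.04 and Csf1 at 19.4 ± 4.74. Spi1 was at 15.4 ± 4.27, Mpeg1 at 14.4 ± 4.11, Adgre1 at 13.9 ± 1.23 and Ptprc at 10.8 ± 1.24. Of neighbours in this order, Cd68 and Csf1, Csf1 and Spi1, Spi1 and Mpeg1, and Mpeg1 and Adgre1 had overlapping ranges, so that their order was within the spread between mice, while Lyz2, Csf1r and Ptprc stood clear of their neighbours. In NormMg-HFD mice the order changed: Lyz2 at 1392 ± 219.9 FPKM (SD, n = 5) was followed by Cd68 at 305.3 ± 65.4, and Csf1, at 24.4 ± 4.78, had become the lowest of the 8. All 8 genes passed the filter on low values in each of the 4 groups, so that none was tested only because it was high in a single group.

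**Figure D1:**
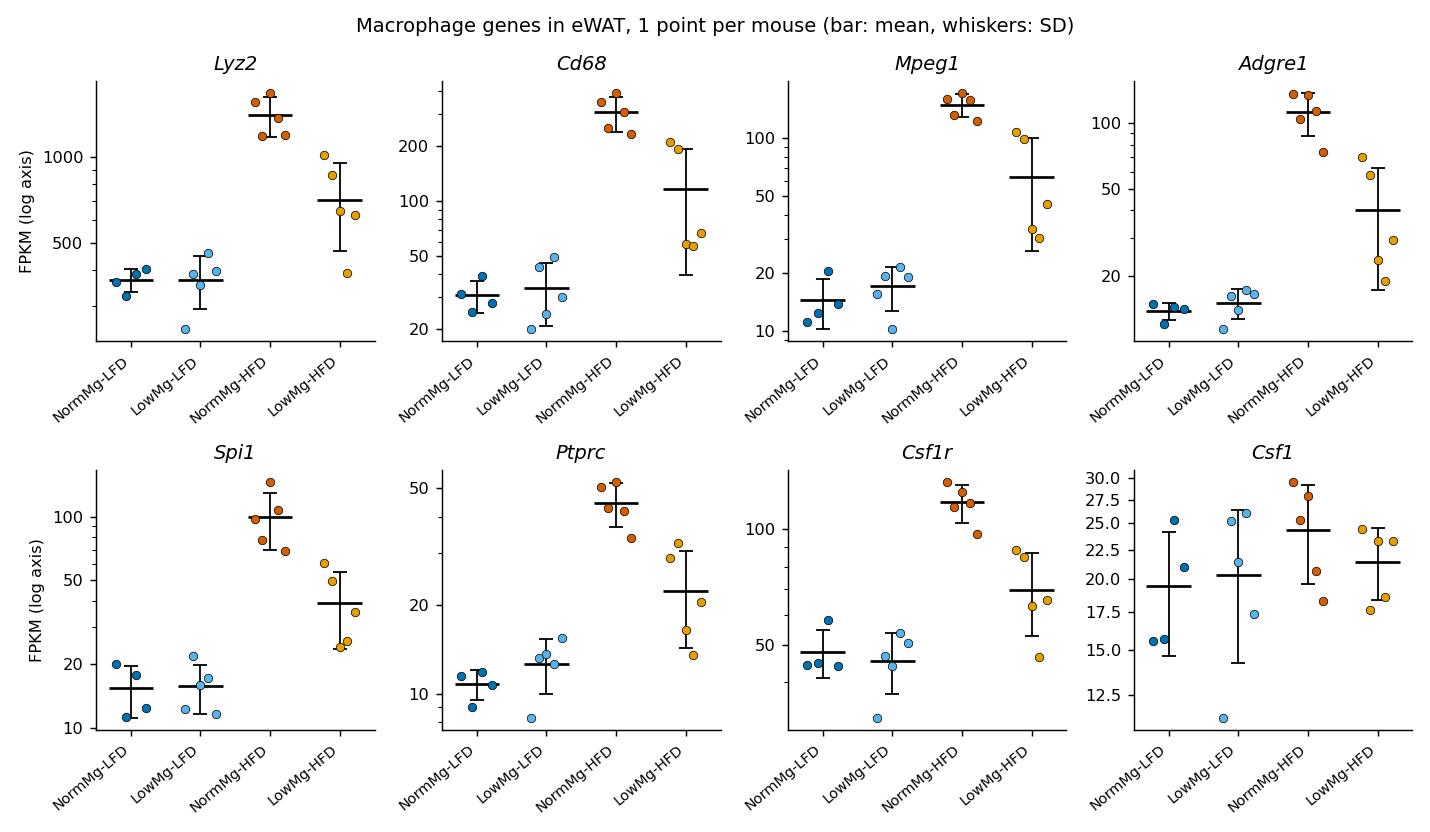
FPKM (log axis) of the 8 genes in each of the 19 mice, by diet; each point is 1 mouse, bars are group means and whiskers SD. The NormMg-HFD mice lie above all NormMg-LFD mice for every gene except Csf1, and the LowMg-HFD means lie between them.

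The surface proteins are described first. Adgre1, which encodes the adhesion receptor F4/80, the classical marker of mouse macrophages, was at 14.8, 12.1, 14.5 and 14.1 FPKM in the NormMg-LFD mice and at 11.4, 16.2, 14.0, 17.3 and 16.5 in the LowMg-LFD mice. It was at 135.8, 104.5, 135.1, 113.5 and 74.2 FPKM in the NormMg-HFD mice and at 70.2, 57.8, 23.6, 18.9 and 29.1 in the LowMg-HFD mice. The lowest NormMg-HFD mouse was above the highest LowMg-HFD mouse, and the lowest LowMg-HFD mouse was above every mouse on a low-fat diet. The mean rose 8.12-fold with fat at normal Mg2+ (log2 fold change 2.91 ± 0.29 SE, adjusted p = 1.36e-06) and fell to 0.355 of its level with low Mg2+ on the high-fat diet (log2 fold change -1.62 ± 0.27, adjusted p = 0.00178). Log2 fold changes here and below are differences of log2(FPKM + 1), tested by limma and adjusted over the 8336 genes tested.

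Ptprc was at 11.5, 9.06, 11.8 and 10.8 FPKM in NormMg-LFD mice and at 8.28, 13.2, 13.7, 12.7 and 15.5 in LowMg-LFD mice. It was at 50.5, 42.8, 52.6, 41.9 and 33.9 FPKM in NormMg-HFD mice and at 29.0, 32.5, 16.5, 13.5 and 20.4 in LowMg-HFD mice. The HFD groups did not overlap, but the lowest LowMg-HFD mouse was within the range of LowMg-LFD mice. With fat at normal Mg2+ Ptprc rose 4.11-fold (log2 fold change 1.93 ± 0.21, adjusted p = 2.12e-06), and with low Mg2+ on the HFD it fell to 0.505 of its level (log2 fold change -1.01 ± 0.20, adjusted p = 0.00311).

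Of the lysosomal and effector genes, Cd68 encodes a glycoprotein of the lysosome that is abundant in phagocytes. It was at 31.2, 25.0, 38.9 and 27.7 FPKM in NormMg-LFD mice, at 19.96, 43.5, 24.2, 49.6 and 30.1 in LowMg-LFD mice, at 345.8, 250.4, 390.2, 306.9 and 233.1 in NormMg-HFD mice and at 209.3, 191.7, 58.4, 56.7 and 66.9 in LowMg-HFD mice. The HFD groups did not overlap, and all HFD mice were above all LFD mice. Cd68 rose 9.94-fold with fat at normal Mg2+ (log2 fold change 3.26 ± 0.36, adjusted p = 2.12e-06) and fell to 0.382 of its level with low Mg2+ on the HFD (log2 fold change -1.61 ± 0.34, adjusted p = 0.00404).

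Mpeg1 encodes perforin-2, a pore-forming protein of phagocytes. Its FPKM was 11.1, 12.3, 20.3 and 13.8 in NormMg-LFD mice, 15.6, 19.3, 10.2, 21.4 and 19 in LowMg-LFD mice, 158.8, 132.0, 171.1, 157.6 and 121.8 in NormMg-HFD mice and 106.7, 98.4, 33.5, 30.1 and 45.3 in LowMg-HFD mice. It gave the largest rise of the 8 genes with fat at normal Mg2+, 10.3-fold (log2 fold change 3.30 ± 0.31, adjusted p = 1.36e-06), and ranked 30 among the 8336 genes by that change. With low Mg2+ on the HFD it fell to 0.424 of its level (log2 fold change -1.41 ± 0.30, adjusted p = 0.00393).

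Lyz2 encodes lysozyme M, which cleaves bacterial cell walls. It was at 362.7, 324.3, 388.3 and 405.4 FPKM in NormMg-LFD mice and at 248.4, 388.5, 353.9, 459.8 and 396.8 in LowMg-LFD mice. In NormMg-HFD mice it was at 1557, 1178, 1669.95, 1369 and 1185 FPKM, and in LowMg-HFD mice at 1013, 859.7, 645.8, 389.98 and 623.7. LowMg-HFD replicate 4 was within the range of the LFD mice, the others above it. Lyz2 rose 3.76-fold with fat at normal Mg2+ (log2 fold change 1.90 ± 0.21, adjusted p = 2.36e-06) and fell to 0.508 of its level with low Mg2+ on the HFD (log2 fold change -1.04 ± 0.20, adjusted p = 0.0029).

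The neighbouring paralog Lyz1, which encodes the lysozyme of Paneth cells in the intestine, differed the other way with fat at normal Mg2+. It was at 59.4, 43.3, 50.1 and 40.2 FPKM in NormMg-LFD mice and at 8.73, 8.17, 10.3, 11.9 and 21.3 in NormMg-HFD mice, which lay below all of them (log2 fold change -1.98 ± 0.41, adjusted p = 0.000783). It was at 15.6, 37.3, 58.8, 36.1 and 43.4 in LowMg-LFD mice and at 29.4, 17.3, 72.4, 11.9 and 35.5 in LowMg-HFD mice, a difference that did not pass the test (log2 fold change -0.34, 95% CI -1.14 to 0.46, adjusted p = 0.599). The rise from NormMg-HFD to LowMg-HFD mice passed the test (log2 fold change 1.21 ± 0.38, adjusted p = 0.0342), although the groups overlapped. That call was lost without any 1 of 7 HFD mice, with adjusted p between 0.056 and 0.101 without NormMg-HFD replicates 1 to 4 or LowMg-HFD replicates 1, 3 or 5. It was also lost with no filter (adjusted p = 0.1) and with the compared groups alone (adjusted p = 0.0617). FPKM of Lyz2 over that of Lyz1 was 6.11 to 10.1 in NormMg-LFD mice, 6.02 to 16.0 in LowMg-LFD mice, 55.7 to 178.4 in NormMg-HFD mice and 8.92 to 49.6 in LowMg-HFD mice. Of the 50-base windows of the Lyz2 transcript, the length of the reads, 195 of 1267 (15.4%) also occur in that of Lyz1, and reads from them are divided between the genes by estimate. With the FPKM of both added, the log2 fold change was 1.73 for fat at normal Mg2+ (adjusted p = 4.87e-06) and -0.98 for Mg2+ on the HFD (adjusted p = 0.00387).

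The upstream DNA of the pair is shown because the paralogs, side by side in the genome, changed in opposite directions with fat at normal Mg2+. At the same distance from the RefSeq start (GRCm38.p6), all 50 bases just before it were identical between the genes, the next 50 were 84.0% identical and the 50 beyond those 74.0%, all compared without gaps. By GENCODE, 49 of the 250 bases before the RefSeq start of Lyz2 are exon of Lyz2 itself, namely those nearest the start, so the identical bases there are not upstream of every annotated transcript. The stretch from base -150 to base -50 is printed 5′ to 3′, with the 21 bases that differ in capitals, at chr10:117282322-117282422 for Lyz2 and chr10:117292918-117293018 for Lyz1, both on the minus strand.
Lyz2: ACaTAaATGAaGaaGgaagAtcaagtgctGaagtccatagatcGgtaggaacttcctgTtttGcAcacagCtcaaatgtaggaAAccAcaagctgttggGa
Lyz1: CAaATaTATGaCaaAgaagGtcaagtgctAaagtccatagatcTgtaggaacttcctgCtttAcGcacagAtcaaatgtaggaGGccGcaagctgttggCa

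Spi1, the transcription factor gene of the set, was at 20.1, 11.2, 17.9 and 12.4 FPKM in NormMg-LFD mice and at 12.2, 21.8, 15.9, 17.1 and 11.6 in LowMg-LFD mice. It was at 98.2, 77.9, 146.9, 107.3 and 69.2 FPKM in NormMg-HFD mice and at 60.2, 49.5, 24.3, 25.9 and 35.2 in LowMg-HFD mice. Neither HFD group overlapped with an LFD group or with the other. Spi1 rose 6.49-fold with fat at normal Mg2+ (log2 fold change 2.61 ± 0.27, adjusted p = 1.4e-06) and fell to 0.391 of its level with low Mg2+ on the HFD (log2 fold change -1.37 ± 0.25, adjusted p = 0.00238).

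Csf1r was at 44.2, 44.9, 58.1 and 43.9 FPKM in NormMg-LFD mice, at 32.2, 46.8, 44.1, 53.9 and 50.7 in LowMg-LFD mice, at 133.3, 114.4, 125.1, 117.6 and 97.5 in NormMg-HFD mice and at 88.3, 84.7, 63.2, 46.5 and 65.6 in LowMg-HFD mice. The receptor gene thus had the smallest change of the 7 genes that rose, 2.46-fold with fat at normal Mg2+ (log2 fold change 1.28 ± 0.17, adjusted p = 9.05e-06). With low Mg2+ on the HFD it fell to 0.593 of its level (log2 fold change -0.77 ± 0.16, adjusted p = 0.00364), with no overlap between the groups.

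Of its ligands, Csf1 was at 15.5, 15.7, 25.4 and 21.0 FPKM in NormMg-LFD mice, at 11.4, 25.3, 21.4, 26.1 and 17.4 in LowMg-LFD mice, at 29.6, 25.3, 27.9, 20.7 and 18.3 in NormMg-HFD mice and at 24.4, 17.6, 23.3, 18.6 and 23.2 in LowMg-HFD mice. All 4 ranges overlapped, and Csf1 passed no test of its own level, while its level relative to Ptprc is given below. The log2 fold change was 0.32 with fat at normal Mg2+ (95% CI -0.11 to 0.75, adjusted p = 0.238) and -0.17 with low Mg2+ on the HFD (95% CI -0.58 to 0.24, adjusted p = 0.591), intervals that leave out changes of the size seen in the 7 other genes. FPKM of Csf1 over that of Csf1r was 0.349 to 0.478 in NormMg-LFD mice, 0.176 to 0.223 in NormMg-HFD mice and 0.208 to 0.399 in LowMg-HFD mice.

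Il34, the other ligand gene, was at 14.2, 16.6, 25.9 and 17.5 FPKM in NormMg-LFD mice and at 10.8, 10.7, 7.25, 11.2 and 10.1 in NormMg-HFD mice, with no overlap. It fell with fat at normal Mg2+ (log2 fold change -0.81 ± 0.25, adjusted p = 0.0149), but without NormMg-LFD replicate 4, the highest mouse, the log2 fold change was -0.64 and the adjusted p 0.0602. In LowMg-LFD mice it was at 8.84, 14.2, 19.4, 22.7 and 14.5 FPKM, and in LowMg-HFD mice at 10.6, 8.59, 16.5, 21.0 and 12.5. The difference between the HFD groups did not pass the test (log2 fold change 0.38, 95% CI -0.11 to 0.87, adjusted p = 0.274).

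**Figure D2:**
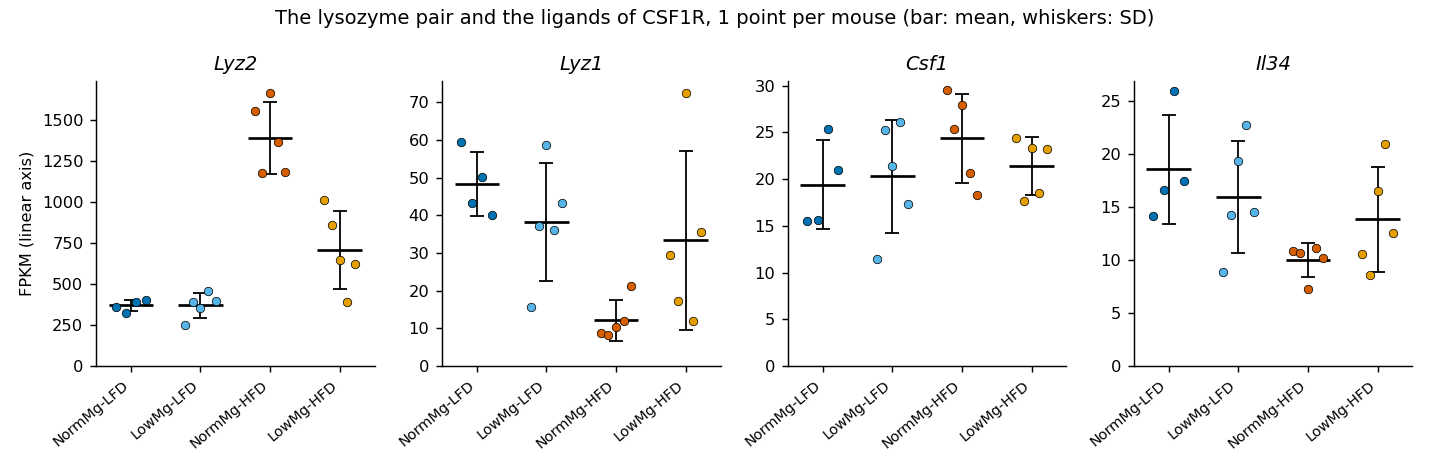
FPKM (linear axes from 0) of Lyz2, its paralog Lyz1, Csf1 and the other CSF1R ligand gene Il34 in each mouse; bars are group means and whiskers SD. Lyz2 and Lyz1 differ in opposite directions between the NormMg diets, while Csf1 overlaps in all 4 groups and Il34 is lowest in NormMg-HFD mice.

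RefSeq promoter windows, 250 bases before to 50 after the start (GRCm38.p6), were at hand for 5 of the 8 genes, namely Ptprc, Csf1, Lyz2, Cd68 and Mpeg1. They were searched on both strands for GAGGAA, the core of the PU.1 box, for its longer form GAGGAAGT, which contains it, for TATAAA and for the GC box GGGCGG. The PU.1 core was found in Cd68, 225 bases before the start and on the other strand 30 bases after it, and in Ptprc, 158 bases before 1 of its 2 starts, and 28.28% of all 32851 promoter windows hold it. GAGGAAGT, held by 3.2% of windows, was found in none of the 5. TATAAA, held by 13.62%, was found in Ptprc alone and GGGCGG, held by 35.66%, in Cd68 and Csf1. The 250 bases upstream of Cd68, a gene that rose with fat at both Mg2+ levels, and of Csf1, which did not pass the test, are printed 5′ to 3′ with these matches in capitals, at chr11:69666171-69666420 and chr3:107760470-107760719, both on the minus strand.
Cd68: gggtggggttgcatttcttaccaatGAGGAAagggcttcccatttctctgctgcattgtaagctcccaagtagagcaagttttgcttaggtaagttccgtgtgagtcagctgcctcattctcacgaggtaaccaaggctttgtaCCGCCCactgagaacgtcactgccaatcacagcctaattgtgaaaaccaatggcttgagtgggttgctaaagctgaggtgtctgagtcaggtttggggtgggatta
Csf1: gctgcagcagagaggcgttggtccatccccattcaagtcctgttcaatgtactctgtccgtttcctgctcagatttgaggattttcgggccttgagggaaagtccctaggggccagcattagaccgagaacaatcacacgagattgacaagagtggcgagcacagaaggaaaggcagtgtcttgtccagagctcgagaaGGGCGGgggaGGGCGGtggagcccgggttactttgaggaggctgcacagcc

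Compared with NormMg-LFD mice, 7 of the 8 genes rose in NormMg-HFD mice, where 24.6% of all genes tested rose. The median log2 fold change of the 8 was 2.27, against 0.07 over all genes tested, and in 7 of 8 every NormMg-HFD mouse was above every NormMg-LFD mouse, as in 21.5% of all genes. In whole tissue, fewer cells of a type cannot be told apart from less RNA per cell. Without NormMg-LFD replicate 3, the library with pancreas transcripts, 7 of 8 still passed, with log2 fold changes from 1.26 for Csf1r to 3.24 for Mpeg1.

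With low Mg2+ on the HFD, 7 of the 8 genes fell, where 12.9% of all genes tested fell, and 7 of 8 had no overlap between the groups, as in 9.56% of all genes. The median log2 fold change was -1.203, against -0.04 over all genes. Adgre1 and Cd68 fell most, at ranks 35 and 39 from the lowest of 8336 genes. Without LowMg-HFD replicate 4, the library with epididymis transcripts, 7 of 8 still passed, with log2 fold changes from -0.64 for Csf1r to -1.41 for Cd68. This comparison and the previous one share the NormMg-HFD mice, so their values for a gene are not independent.

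With fat at low Mg2+, 7 of the 8 genes rose in LowMg-HFD compared with LowMg-LFD mice, where 12.4% of all genes rose, and 4 (Adgre1, Cd68, Spi1 and Mpeg1) had no overlap, as in 6.99% of all genes. The median log2 fold change was 1.04, with Mpeg1 at 1.66 ± 0.30 (adjusted p = 0.00156), Cd68 at 1.60 ± 0.34 (adjusted p = 0.00381), Spi1 at 1.21 ± 0.25 (adjusted p = 0.0035) and Adgre1 at 1.18 ± 0.27 (adjusted p = 0.00608). Lyz2 was at 0.89 ± 0.20 (adjusted p = 0.00608), Ptprc at 0.73 ± 0.20 (adjusted p = 0.0179), Csf1r at 0.59 ± 0.16 (adjusted p = 0.0165) and Csf1 at 0.12 ± 0.20 (adjusted p = 0.736). The calls of Csf1r and Ptprc were lost without LowMg-LFD replicate 1 (adjusted p = 0.0557 and 0.0614), LowMg-HFD replicate 1 (0.055 and 0.0584) or LowMg-HFD replicate 2 (0.0575 and 0.063), and also with no filter (0.0502 and 0.0563) or with the compared groups alone (0.067 and 0.0728). Without the libraries with epididymis transcripts, 7 of 8 passed, with log2 fold changes from 0.79 for Csf1r to 1.96 for Mpeg1.

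On the LFD, low Mg2+ changed none of the 8 genes by this test, as it changed 0.0% of all genes, although 547 genes had an unadjusted p under 0.05. None of the 8 was among those. Log2 fold changes lay between -0.08 for Csf1r (95% CI -0.43 to 0.27) and 0.23 for Mpeg1 (95% CI -0.43 to 0.89). No gene of the 8 lacked overlap between these groups, against 1.79% of all genes.

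The test of whether the effect of low Mg2+ differed between the fat levels gave lower values on the HFD for all 8 genes, with 2 past the threshold, where 0.756% of all genes passed in that direction. These were Adgre1 (difference of log2 fold changes -1.72 ± 0.39, adjusted p = 0.0447) and Ptprc (-1.2025 ± 0.29, adjusted p = 0.0495). Spi1 and Mpeg1 were at an adjusted p of 0.0551, Lyz2 at 0.0709, Cd68 at 0.0735 and Csf1r at 0.0991, and 7 of 8 had an unadjusted p under 0.05. The count rested on single mice: it was 7 without LowMg-HFD replicate 1, 6 without LowMg-HFD replicate 2, 4 without LowMg-LFD replicate 1 or without NormMg-HFD replicate 5, and 0 without any 1 of the other 15 mice. It was also 0 with a pseudocount of 0.1, with a filter of FPKM over 1, with no filter and with the replicate block.

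**Figure D3:**
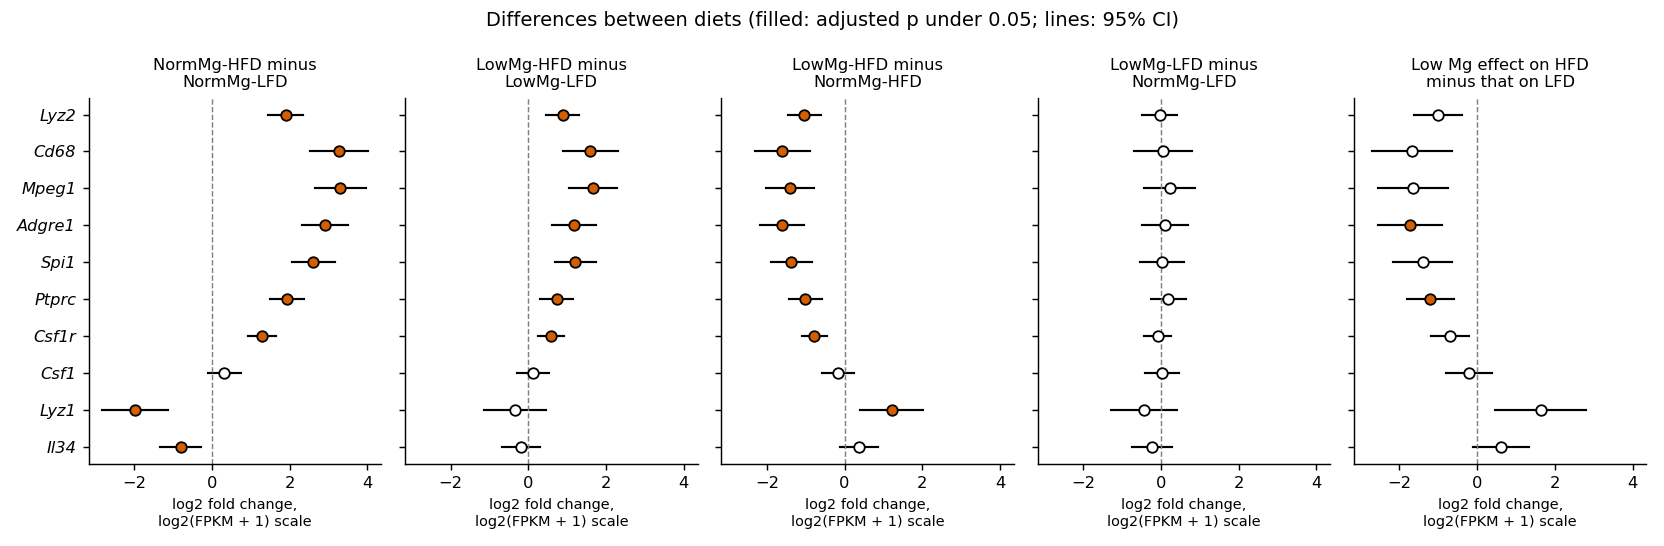
Log2 fold changes on the log2(FPKM + 1) scale with 95% CI (lines) for the 8 genes, Lyz1 and Il34 in 5 comparisons; filled points passed the adjusted threshold of 0.05. The 7 genes other than Csf1 lie right of 0 with fat and left of 0 with low Mg2+ on the HFD, and all intervals span 0 with low Mg2+ on the LFD.

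Within LowMg-HFD mice the genes varied together from mouse to mouse. Replicates 1 and 2 were the highest mice for 7 of the 8 genes, and replicate 4 was the lowest for 6 of these 7. For Cd68 the highest LowMg-HFD mouse was 3.69 times the lowest, against 1.67 times among NormMg-HFD mice, and for Adgre1 3.70 against 1.83 times. Csf1 differed, since replicate 2 was its lowest mouse, at 17.6 FPKM.

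Over all 19 mice, deviations from the group means were correlated among the 7 genes other than Csf1. Over their 21 pairs, Pearson's r was 0.65 to 0.92 and Spearman's rho 0.70 to 0.93 (permutation tests within groups, two-sided; adjusted p over 28 pairs 0.00019 to 0.018 for r and 0.00028 to 0.01 for rho). Without the 2 mice farthest from the median, r was 0.53 to 0.90. For the 7 pairs with Csf1, r was 0.25 to 0.61 and rho 0.44 to 0.58, and 2 of the 7 passed for r and 6 for rho (adjusted permutation p 0.012 to 0.26 for r and 0.01 to 0.054 for rho). Without the 2 farthest mice r was 0.14 to 0.59. Among the 14 mice of the 3 other groups, r was 0.48 to 0.83 for pairs with Csf1 and 0.32 to 0.86 for the rest.

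**Figure D4:**
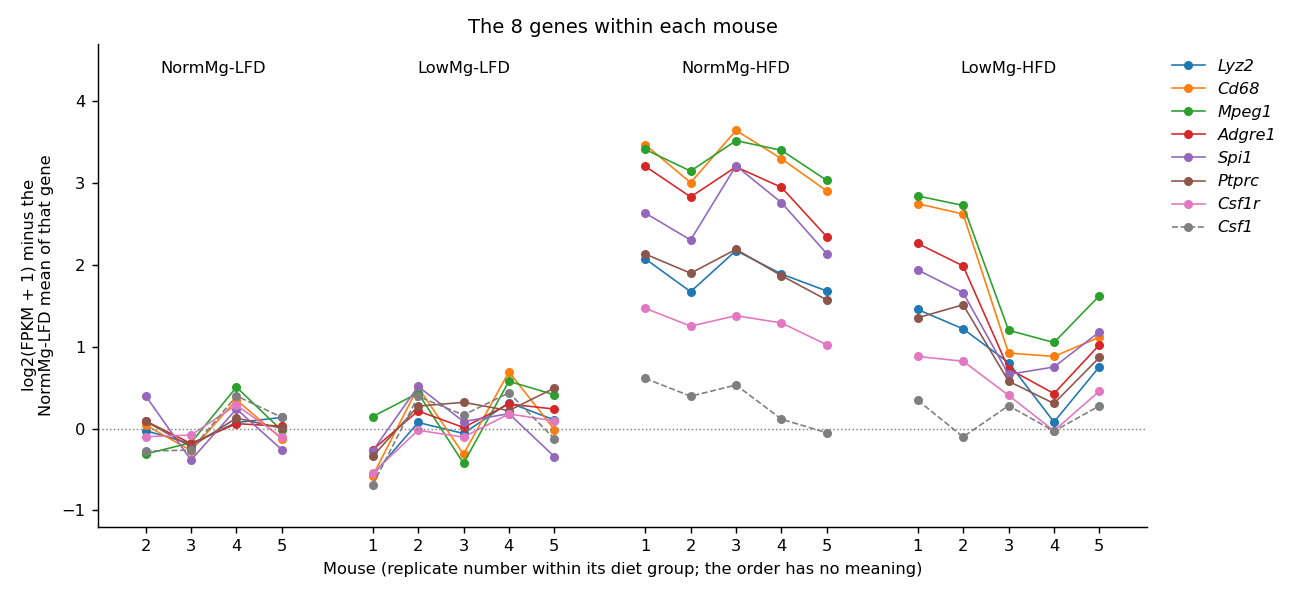
Log2(FPKM + 1) of each gene minus its mean in NormMg-LFD mice, for each mouse; lines join the values of 1 gene within a diet and the order of mice has no meaning. In LowMg-HFD replicates 1 and 2 the genes other than Csf1 stand above replicates 3 to 5, and Csf1 (dashed) lies between -0.69 and 0.61 over all mice, with values on both sides of 0.

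Relative to Ptprc, the 7 other genes differed among themselves. With Ptprc of the same mouse subtracted on the log2 scale, most genes of the tissue differed from it: 96.9% passed with fat at normal Mg2+, 62.6% with fat at low Mg2+ and 91.3% with Mg2+ on the HFD. The size and sign of a difference are therefore what is read here. With fat at normal Mg2+, Mpeg1 (1.37, 95% CI 0.87 to 1.87), Cd68 (1.33, 95% CI 0.83 to 1.83), Adgre1 (0.97, 95% CI 0.55 to 1.39) and Spi1 (0.68, 95% CI 0.21 to 1.14) rose beyond Ptprc. Csf1r (-0.65, 95% CI -1.03 to -0.26) and Csf1 (-1.61, 95% CI -2.13 to -1.10) fell relative to Ptprc. Lyz2 did not pass the test (-0.03, 95% CI -0.43 to 0.36), and its FPKM over that of Ptprc was 31.5 to 37.7 in NormMg-LFD, 27.6 to 35.0 in NormMg-HFD and 26.5 to 39.1 in LowMg-HFD mice.

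With low Mg2+ on the HFD, Adgre1 (-0.61, 95% CI -1.005 to -0.22) and Cd68 (-0.60, 95% CI -1.07 to -0.12) fell beyond Ptprc, and Csf1 (0.84, 95% CI 0.36 to 1.33) rose relative to it. Mpeg1 (-0.40, 95% CI -0.87 to 0.07), Spi1 (-0.36, 95% CI -0.80 to 0.08), Lyz2 (-0.03, 95% CI -0.40 to 0.35) and Csf1r (0.23, 95% CI -0.13 to 0.60) did not pass the test. The call of Cd68 was lost without LowMg-HFD replicate 3 (adjusted p = 0.0555) or replicate 5 (adjusted p = 0.0679). With fat at low Mg2+, Mpeg1 (0.93, 95% CI 0.46 to 1.40), Cd68 (0.87, 95% CI 0.39 to 1.34) and Adgre1 (0.45, 95% CI 0.06 to 0.85) rose beyond Ptprc and Csf1 (-0.61, 95% CI -1.10 to -0.13) fell relative to it, 4 of 7 genes in all. That count was 2 to 5 when single mice were left out, and was 2 without LowMg-LFD replicate 1 or 4 or without LowMg-HFD replicate 1 or 2. The call of Adgre1 passed in only 15 of 32 alternatives, and was lost with the replicate block (adjusted p = 0.0606) and with the compared groups alone (adjusted p = 0.161). That of Csf1 was lost without LowMg-LFD replicate 1, 2 or 4 or LowMg-HFD replicate 1 or 2 (adjusted p 0.0518 to 0.124).

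**Figure D5:**
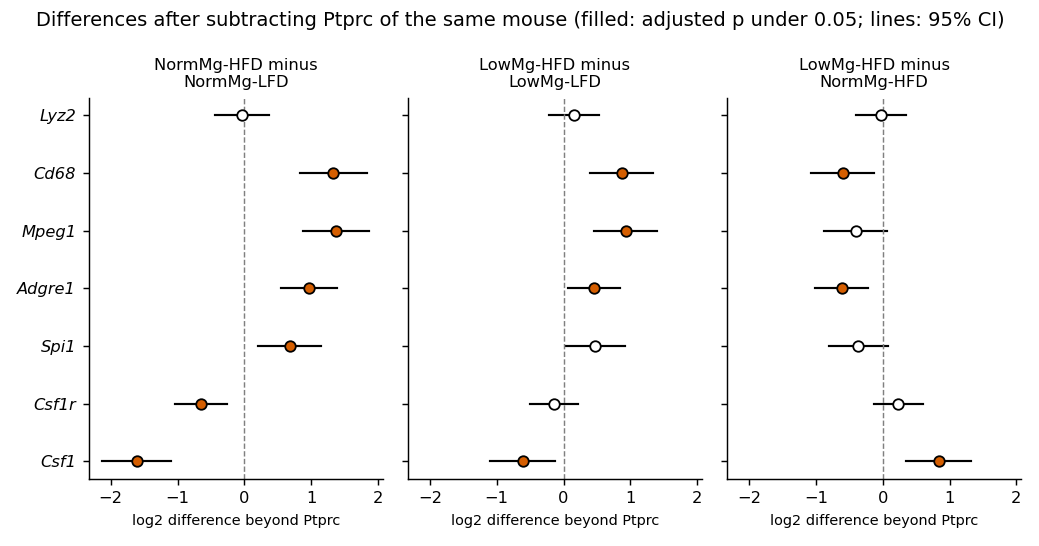
Log2 differences between diets after subtracting Ptprc of the same mouse, with 95% CI (lines), for the 7 other genes in 3 comparisons; filled points passed the adjusted threshold of 0.05. Mpeg1 and Cd68 lie right of 0 with fat at normal Mg2+, Csf1r and Csf1 left of it, and the intervals of Lyz2 span 0 in all 3 panels.

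Counts in gene lists are read beside the shares of all genes tested: 24.6% rose and 12.8% fell with fat at normal Mg2+, 12.4% rose with fat at low Mg2+, and 12.9% fell and 5.58% rose with low Mg2+ on the HFD. Some listed genes reached the filter on low values in NormMg-HFD mice alone, which favours a rise with fat and a fall with low Mg2+, so counts are also given without them. Others, named with each list, reached it in both HFD groups and no LFD group. That also favours a rise with fat, and these genes stay in all counts.

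The signalling genes around CSF1R were read as a list of 25, of which 17 were tested. With fat at normal Mg2+ 14 rose and 1, Il34, fell, and with low Mg2+ on the HFD 11 fell and none rose. Without the 4 genes that reached the filter in NormMg-HFD mice alone, 10 of 13 rose and 7 of 13 fell. Inpp5d, among the 13, reached the filter in the HFD groups only. Tyrobp, an adaptor that passes on signals of CSF1R and TREM2, rose by 2.70 ± 0.30 on the log2 scale (adjusted p = 2.23e-06) and fell with low Mg2+ on the HFD (log2 fold change -1.44 ± 0.28, adjusted p = 0.00296). Grb2, an adaptor to RAS, was at 1.29 ± 0.15 (adjusted p = 4.01e-06) and -0.58 ± 0.15 (adjusted p = 0.0102) in the same comparisons. Csf2ra, the receptor chain for GM-CSF, was at 1.84 ± 0.21 (adjusted p = 2.68e-06) and -1.04 ± 0.20 (adjusted p = 0.00269), and Stat3, at 0.29 and -0.19, passed neither test. The genes of the other colony-stimulating factors, Csf2 and Csf3, were at no more than 0.67 FPKM in any mouse and were not tested. With fat at low Mg2+ 9 of the 17 rose, or 6 of the 13.

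Among 20 transcription factors of the macrophage lineage, 15 were tested. With fat at normal Mg2+ 5 rose, where 24.6% of all genes rose, and 1 fell, and with low Mg2+ on the HFD 4 fell, where 12.9% of all genes fell. The 4 most abundant, Cebpa, Id3, Zeb2 and Nr1h3, did not rise in any comparison, and Cebpa, which also drives adipocytes, fell with fat at normal Mg2+ (log2 fold change -0.65 ± 0.13, adjusted p = 0.000662). Among those that rose were Irf8 (2.03 ± 0.22, adjusted p = 1.96e-06), Cebpb (1.15 ± 0.19, adjusted p = 8.98e-05) and Irf5 (0.67 ± 0.15, adjusted p = 0.00168), which are named after their values were seen. Irf8 reached the filter in the HFD groups only, which favours a rise with fat. With fat at low Mg2+ 4 of the 15 rose, where 12.4% of all genes rose. Without Bach1, which reached the filter in NormMg-HFD mice alone, these counts were the same, of 14 genes.

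Of 20 other macrophage genes, all tested, 18 rose with fat at normal Mg2+, 9 with fat at low Mg2+, and 18 fell with low Mg2+ on the HFD (median log2 fold changes 2.10, 0.71 and -1.18). Without the 3 that reached the filter in NormMg-HFD mice alone, these counts were 15, 9 and 15 of 17. Aif1, Ms4a7, Ms4a6d and Cybb, among the 17, reached the filter in the HFD groups only, which favours a rise with fat. Lgals3, the lectin galectin-3, had log2 fold changes of 3.50 and -1.81 with fat at normal Mg2+ and with low Mg2+ on the HFD, Ctss, a lysosomal protease, 3.39 and -1.44, C1qb 2.03 and -1.13 and C1qa, both complement genes, 1.36 and -0.89 (adjusted p 1.37e-06 to 0.0053). Of 12 genes of lipid-associated macrophages, 11 rose with fat at normal Mg2+, 7 rose with fat at low Mg2+ and 10 fell with low Mg2+ on the HFD, or 9, 5 and 8 of 10 without the 2 that reached the filter in NormMg-HFD mice alone. Trem2, Gpnmb and Itgax, among the 10, reached the filter in the HFD groups only, which favours a rise with fat. Plin2 was at 2.05 and -1.09, Ctsl at 1.29 and -0.73 and Cd63 at 1.00 and -0.73, while Lpl, which adipocytes also express, was at -0.04 and -0.09 and passed neither test. Of 9 resident macrophage genes tested of 10, 4 rose and 1 fell with fat at normal Mg2+, 3 fell with low Mg2+ on the HFD and none changed with fat at low Mg2+. Their median log2 fold changes were -0.26, 0.09 and -0.11, in the same order. Folr2 was at 0.88 and -0.82 and Clec10a at 0.77 and -0.53, while Gas6, at -0.47 and 0.09, and Cbr2, at -0.43 and 0.16, passed neither test.

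Markers of other cells were read beside the 8 genes, and their part in the results was not tested. All 16 pan-leukocyte genes, Ptprc among them, rose with fat at normal Mg2+, 11 rose with fat at low Mg2+ and 14 fell with low Mg2+ on the HFD, or 13, 10 and 12 of 13 without the 3 that reached the filter in NormMg-HFD mice alone. Dock2, Was, Cd48, Arhgap30 and Nckap1l, among the 13, reached the filter in the HFD groups only, which favours a rise with fat. The summed level of the 16 genes was 219.9 to 272.6 FPKM in NormMg-LFD mice, 176.4 to 374.8 in LowMg-LFD mice, 862.7 to 1335 in NormMg-HFD mice and 317.0 to 749.1 in LowMg-HFD mice. Laptm5 was at 2.11 and -1.19, Lcp1 at 2.80 and -1.46, Cd52 at 2.00 and -0.89 and Coro1a at 1.61 and -0.91 in the 2 comparisons named above. Lymphocyte markers were scarce: of 12 T cell genes only Thy1, which stroma also makes, was tested (0.68 and -0.67, neither passed), and none of 8 B cell, 7 NK cell or 5 eosinophil genes reached the filter. Summed over the list, T cell genes were at 28.1 to 36.0 FPKM in NormMg-LFD, 23.9 to 48.7 in LowMg-LFD, 28.8 to 63.7 in NormMg-HFD and 32.2 to 42.0 in LowMg-HFD mice, B cell genes at 5.43 to 32.02 over all mice, NK cell genes at 3.70 to 17.1 and eosinophil genes at 0.19 to 3.28.

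Neutrophils also express Lyz2, which is not on their list of 10 genes. That list summed to 6.57 to 9.06 FPKM in NormMg-LFD, 4.81 to 19.4 in LowMg-LFD, 20.4 to 142.1 in NormMg-HFD and 8.75 to 20.6 in LowMg-HFD mice. The highest value was that of NormMg-HFD replicate 3 alone, and the 4 other mice of its diet were at 20.4 to 29.9. Of the 10, S100a8 alone reached the filter, and only in NormMg-HFD mice, so that its test is not read; it was at 2.28 to 5.62 FPKM in NormMg-LFD, 2.26 to 4.51 in LowMg-LFD, 16.1 to 70.5 in NormMg-HFD and 3 to 15.2 in LowMg-HFD mice. Of 7 monocyte genes 3 were tested; Fn1 was at 0.79 and -0.81, both past the threshold, while Ccr2 (0.94 and -0.40) passed with fat only. Plac8 reached the filter in NormMg-HFD mice alone, at a mean of 12.4 FPKM against 4.82, 7.10 and 6.05 in NormMg-LFD, LowMg-LFD and LowMg-HFD mice. The monocyte list summed to 147.1 to 181.6 FPKM in NormMg-LFD, 81.0 to 169.8 in LowMg-LFD, 238.4 to 366.5 in NormMg-HFD and 116.3 to 219.4 in LowMg-HFD mice. Fn1 alone was at means of 143.3, 112.3, 249.5 and 146.0 FPKM in these groups, so it made up most of the sum. Of 8 dendritic cell genes 2 were tested, and Clec10a, shared with the resident macrophage list, passed in both comparisons, while Batf3 reached the filter in NormMg-HFD mice alone and its test is not read. Of 8 mast cell genes 3, Tpsb2, Mcpt4 and Cma1, reached the filter, all in NormMg-HFD mice alone, so that their tests are not read. The mast cell list summed to 29.3 to 74.5, 23.3 to 55.9, 28.5 to 76.7 and 21.6 to 35.9 FPKM in NormMg-LFD, LowMg-LFD, NormMg-HFD and LowMg-HFD mice.

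The adipocyte genes, which define the tissue, were high in every mouse, with a sum over 12 genes of 15854 to 32513 FPKM. Of the 12, 2 rose and 8 fell with fat at normal Mg2+, and 7 rose with low Mg2+ on the HFD. Cfd (adipsin), which adipocytes secrete, fell (log2 fold change -3.80 ± 0.34, adjusted p = 1.36e-06) and rose (2.12 ± 0.32, adjusted p = 0.00178), while Cd36 rose with fat (0.38 ± 0.11, adjusted p = 0.0122) and Fabp4 (0.04 and 0.26) and Cidec (0.03 and 0.34) passed neither test. Of 8 endothelial genes 1 fell with fat at normal Mg2+, and 1 rose with low Mg2+ on the HFD and 1 with fat at low Mg2+, where 1 of 8 is near the shares of all genes. Cldn5, Cdh5, Pecam1 and Esam did not pass with fat at normal Mg2+ (log2 fold changes -0.20 to 0.14) or with low Mg2+ on the HFD (0.10 to 0.25), while Cdh5 rose with fat at low Mg2+ (0.29 ± 0.09, adjusted p = 0.0257). Of 8 stromal genes 4 rose with fat at normal Mg2+, 3 rose with fat at low Mg2+ and 4 fell with low Mg2+ on the HFD; Col3a1 was at 1.62 and -1.31, Col1a1 at 1.48 and -1.22, Col1a2 at 1.03 and -0.89 and Dcn, which passed neither test, at -0.11 and -0.11. Cela1, the only pancreas gene tested, was at 0.38 and -0.32 (adjusted p = 0.593 and 0.696), and no epididymis gene reached the filter. With low Mg2+ on the LFD no gene of any list passed.

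The genes whose deviations from the group means were most like those of each of the 8 were sought among all genes tested, by Pearson's r over the 19 mice, and no p is given since they are the highest of all genes tested. For Adgre1 these were Sirpa (r = 0.98, rho = 0.97), a receptor of myeloid cells for CD47, Ctsa (0.97 and 0.98), a lysosomal carboxypeptidase, and Lcp1 (0.96 and 0.94), an actin-bundling protein of leukocytes. For Cd68 they were the lysosomal protease gene Lgmn (0.98 and 0.97), Nceh1 (0.97 and 0.95), which hydrolyses cholesterol esters, and Lcp1 (0.97 and 0.97). For Mpeg1 they were Gpnmb (0.97 and 0.95), Trem2 (0.96 and 0.95), a lipid receptor of macrophages, and Evl (0.95 and 0.96). For Lyz2 they included Slc11a1 (0.96 and 0.95), a metal transporter of the phagosome, and Ptafr (0.94 and 0.90), the receptor for platelet-activating factor. For these 4 genes, r without the 2 farthest mice was 0.89 to 0.98.

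For Csf1r they were Adcy7 (0.97 and 0.98), an adenylate cyclase, Cybb (0.94 and 0.89), the catalytic subunit of the NADPH oxidase, and Laptm5 (0.93 and 0.88). For Ptprc they were Cd300ld (0.96 and 0.90), Il10ra (0.95 and 0.94), the receptor for interleukin 10, and Sirpa (0.94 and 0.94). For Spi1 r was lower, with Basp1 (0.90 and 0.89), Plk2 (0.88 and 0.90) and Arpc2 (0.88 and 0.86). For Csf1 they were Sema4c (0.90 and 0.87), Mrc1 (0.90 and 0.90), the mannose receptor of resident macrophages, and Nfe2l2 (0.88 and 0.89), and r without the 2 farthest mice was 0.82 to 0.83.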

How the data were processed

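eWAT RNA of 19 mice was sequenced as single-end reads, with 12986441 to 13027028 reads per mouse. The authors aligned reads with HISAT and Bowtie2 to GRCm38 (mm10) and estimated expression with RSEM 1.2.31, and they deposited FPKM per gene and mouse, which is scaled for transcript length and library size. The authors also gave the mapped share of reads, in percent, for each library. Read counts were not used here.

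FPKM values were transformed to log2(FPKM + 1), from the values the authors deposited. A pseudocount of 1 understates changes of low genes. Genes with a mean above 8 FPKM in a group and above 8 in at least 4 of its mice were kept, which left 8336 of 24237 genes. All 4 groups were fitted together in limma 3.58.1 (R 4.3.3) with a mean-variance trend and no block, two-sided, with Benjamini-Hochberg adjustment over all genes tested and a threshold of 0.05. The same fit was run after subtracting Ptprc of each mouse. The scripts were tested on simulated data. Correlations used 100000 permutations within groups. Alternatives were other pseudocounts, filters and scalings, no trend, a replicate block, the compared groups alone, and leaving out single mice or libraries. For the fit relative to Ptprc, the mean of the pan-leukocyte genes was also tried in its place. Leaving out the libraries with epididymis transcripts, alone or with that holding pancreas transcripts, was chosen after the data were seen.

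The members and lists were chosen with earlier results of these data known. All 8 members are named in every mouse, up to 4 genes per list by mean FPKM, the 3 genes most like each member, Lyz1 as the paralog of Lyz2 and Il34 as the other ligand of CSF1R. Promoter sequences are from RefSeq (GRCm38.p6), and Adgre1, Spi1 and Csf1r were not matched there. A few genes that these rules name are not reported here.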

Additional observations from a re-analysis of the deposited data

Results flagged for a closer look

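Among the 8 genes in 4 groups, 32 sets of mice were examined for a single mouse far from the others of its diet, and 1 was found. Csf1r in NormMg-LFD replicate 4 was at 58.12 FPKM, against 43.9 to 44.9 in the other 3 mice. Chance gives such a mouse in about 1 in 20 sets. The effect of low Mg2+ differed between the HFD and the LFD for Adgre1, by -1.7206 on the log2 scale, and for Ptprc, by -1.2025, by limma's test of the difference itself (adjusted p = 0.0447 and 0.0495). Both calls were lost without any 1 of 15 of the 19 mice.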

How the results depend on the processing

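Over 31 alternatives, all values for fat at normal Mg2+ (249) and for low Mg2+ on the HFD (249) kept their direction and their side of the threshold. For fat at low Mg2+ 235 of 249 did so, 12 lost the call, all of them of Csf1r or Ptprc, and 2 reversed. In these comparisons, leaving out a mouse of a diet not compared cannot change the fold change. The direction in those alternatives was therefore fixed in advance, and only p could differ. The number of genes past the threshold for the difference between Mg2+ effects was 2 of 8 and the least stable. It was 0 with a pseudocount of 0.1, with a filter of FPKM over 1, with no filter, with the replicate block, and without the libraries with epididymis transcripts or these and the one with pancreas transcripts. It was 1 with a filter of log2(FPKM + 1) over 3 or with no trend, 4 with each mouse centred on its median or with quantile normalization, and 6 without LowMg-HFD replicate 2 at the log2 filter. It was 0 to 7 when single mice were left out, and over all genes the count was 104, against 0 to 488. The cause was not tested. Relative to Ptprc, the 4 genes past the threshold for fat at low Mg2+ became 2 without LowMg-HFD replicate 2 at the log2 filter or with the compared groups alone, and 2 to 5 without single mice.

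Reversals were of values near 0 that passed no test. For fat at low Mg2+, Csf1 was at -0.0008 with quantile normalization and -0.0642 to 0.2174 without single mice. For low Mg2+ on the LFD, leaving out single mice gave -0.0994 to 0.2186 for Cd68, -0.1436 to 0.0372 for Csf1r, -0.0631 to 0.2184 for Csf1, -0.0947 to 0.1678 for Spi1 and -0.1121 to 0.1092 for Lyz2. Without the libraries with epididymis transcripts these values were -0.0994 for Cd68, -0.0631 for Csf1 and -0.0036 for Spi1, and without that with pancreas transcripts as well -0.1888, -0.1508 and -0.132, with Adgre1 at -0.0086 and the difference between Mg2+ effects for Csf1 at 0.0304. Lyz2 on the LFD was at 0.0389 with median centring and Spi1 at -0.0012 with the block. Relative to Ptprc, Lyz2 was at -0.0724 to 0.014 for fat at normal Mg2+ and at -0.0995 to 0.0311 for low Mg2+ on the HFD without single mice. The latter was 0.0047 with a pseudocount of 0.1, 0.0183 with quantile normalization, 0.0311 without LowMg-HFD replicate 2 at the log2 filter and 0.0141 without the epididymis libraries, with or without that of pancreas.

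Over 27 pairs of same-numbered mice the correlation of their deviations was -0.18 to 0.34 (median 0.0032), over 0.1 in 5. Over 108 pairs with different numbers it was -0.27 to 0.20 (median -0.0018), over 0.1 in 18. The labels give no pairing, and the replicate block left 0 of 104 genes for the difference between Mg2+ effects. Over all genes, those called for fat at low Mg2+ were 1329, against 725 with the compared groups alone, 807 without LowMg-HFD replicate 2 (821 at the log2 filter), 835 without LowMg-LFD replicate 1 and 873 without LowMg-HFD replicate 1. For low Mg2+ on the HFD they were 1542, against 945 without NormMg-HFD replicate 3. Of the calls, 65.77% were higher with fat at normal Mg2+, 77.95% with fat at low Mg2+ and 30.16% with low Mg2+ on the HFD; these shares were 50.13%, 52.76% and 43.32% with median centring and 46.92%, 50.88% and 47.24% with quantile normalization, which moved the median of all genes for fat at normal Mg2+ from 0.0734 to -0.0439 and for fat at low Mg2+ from 0.0972 to -0.0218.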
